A study of Bos taurus with 6 samples.

Results

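Endothelial cells line blood vessels, lymphatic vessels and the liver sinusoids. They are recognised by a set of surface receptors, junction proteins and secreted proteins that hepatocytes make little of. The 10 genes VWF, LYVE1, ESAM, CLDN5, PECAM1, KDR, CDH5, TEK, TIE1 and ENG are such markers. They were taken as the loci of the deposited gene count matrix whose gene name equals one of these symbols, which gave 10 of 36577 loci, 1 for each symbol. In the signalling arm of this set, KDR binds vascular endothelial growth factor (VEGF), TEK binds angiopoietins and forms complexes with TIE1, and ENG is a co-receptor for the ligands BMP9 and BMP10. CDH5, PECAM1, ESAM and CLDN5 hold endothelial cells together, VWF is stored in endothelial granules and released into blood, and LYVE1 binds hyaluronan on lymphatic and liver sinusoidal endothelium.

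The cells were primary hepatocytes, wild type per the labels, taken from the livers of fasted and healthy female calves at an age of 1 day and grown in a medium with fetal bovine serum. In the PA_3-IAA group (3 libraries) they received palmitic acid (PA, 400 μmol/L), a saturated fat component that is toxic to liver cells in excess, together with 200 μmol/L indole-3-acetic acid (3-IAA), a breakdown product of tryptophan. In the PA_DMSO group (3 libraries) they received 400 μmol/L PA with the solvent DMSO. All 6 libraries therefore carry PA, and no library without PA was analysed here. The labels do not say how many calves were used, whether cells were pooled, or whether the replicates are separate cultures, so that p-values measure only the spread between these libraries. Polyadenylated RNA was sequenced, and the total estimated count per library was 21159388 to 22562450 in PA_3-IAA and 16580723 to 20765358 in PA_DMSO.

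The label hepatocyte was set against marker genes first. The 19 hepatocyte markers found in the table summed to between 35450 and 40025 TPM (a level corrected for transcript length and scaled to a common total) in PA_3-IAA libraries and between 24575 and 27546 TPM in PA_DMSO libraries. Albumin (ALB) alone stood at 4275 to 4707 TPM in PA_3-IAA and at 2294 to 2859 TPM in PA_DMSO. The 10 endothelial markers summed to 103.02, 92.60 and 98.94 TPM in PA_3-IAA replicates 1 to 3, against 43.08, 44.59 and 74.17 TPM in PA_DMSO replicates 1 to 3. The groups did not overlap in this sum, and PA_DMSO replicate 3 lay between the other libraries of its group and the PA_3-IAA libraries. The hepatocyte sum was 360 to 405 times the endothelial sum in PA_3-IAA libraries and 371 to 581 times in PA_DMSO libraries. In bulk RNA, fewer cells of a type and less RNA per cell cannot be told apart, so a level below describes the culture and not a cell.

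PA_DMSO replicate 3 stands apart from its group over the whole table, and this touches every result here. On the first principal component of log2 CPM (counts scaled to a common library size, here after TMM scaling), which accounted for 78.5% of the variance of 15576 genes, the PA_3-IAA libraries lay between 41.2 and 41.8. PA_DMSO replicate 3 lay at -15.7, and PA_DMSO replicates 1 and 2 at -54.0 and -54.7. The fold changes and ratios of the markers and the counts of each gene list are therefore given with and without that library. It was singled out from these same data and lies toward PA_3-IAA. Leaving it out therefore tends to widen the differences and to narrow the spread within PA_DMSO. P-values without it rest on PA_DMSO replicates 1 and 2 alone and add no independent support.

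Most of the 10 endothelial markers had higher levels with 3-IAA. The 10 were chosen with earlier results of these data known, so the counts below describe these genes only. In edgeR's quasi-likelihood test with Benjamini-Hochberg adjustment over all 15576 genes tested, 5 of the 10 markers rose at an adjusted p under 0.05 (LYVE1, VWF, TIE1, PECAM1 and CDH5) and 2 fell (ESAM and CLDN5). Over all tested genes 25.4% were called higher and 25.8% lower. The median log2 fold change of the 10 markers was 1.07, beside 0.00 over all tested genes. ENG, KDR and TEK had fitted values above 0 and missed the threshold. Without PA_DMSO replicate 3, 8 markers rose and 2 fell, where 30.9% of 15937 genes were called higher and 29.7% lower. CPM values of the groups did not overlap for any of the 10 markers, 8 with PA_3-IAA above and 2 with PA_3-IAA below. Over all tested genes 31.5% had no overlap with PA_3-IAA above and 31% with PA_3-IAA below.

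**Figure D1:**
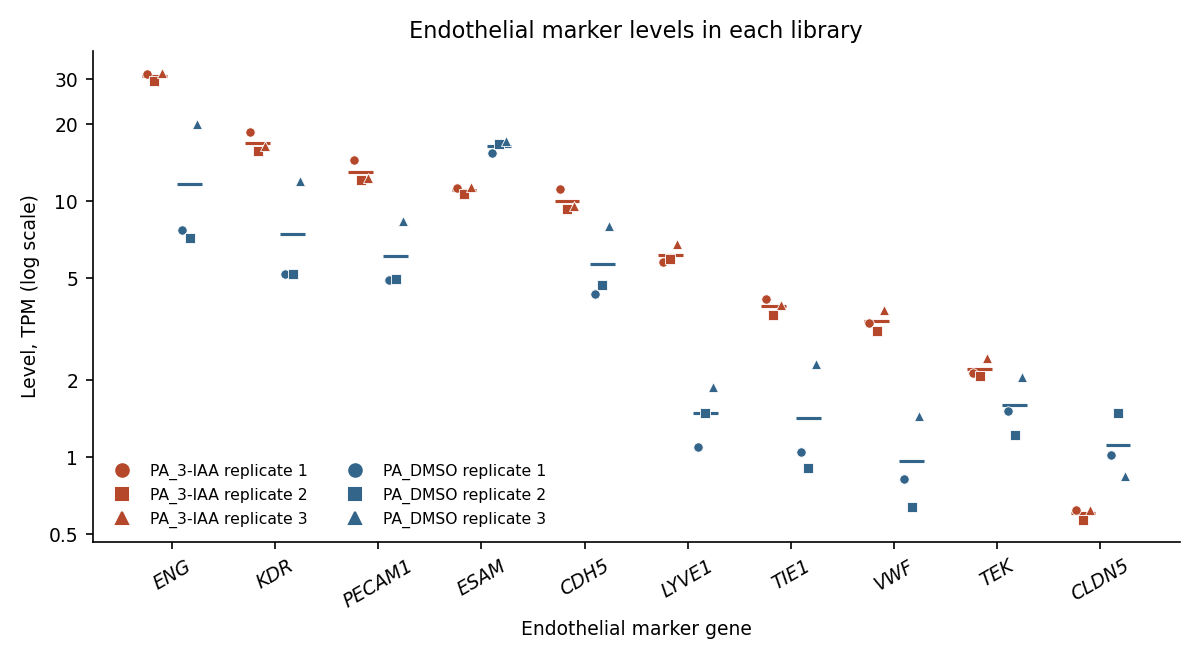
Level of each endothelial marker in TPM (log axis) in the 3 PA_3-IAA libraries (left of each pair) and the 3 PA_DMSO libraries (right), 1 point per library, with a line at the group mean. ESAM and CLDN5 are lower in every PA_3-IAA library, the other 8 markers are higher in every PA_3-IAA library, and PA_DMSO replicate 3 (triangle) is the highest of its group for 9 of the 10.

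Among the receptors, KDR (ENSBTAG00000000782), the main signalling receptor for VEGF, had 69.8, 61.6 and 63.4 CPM in PA_3-IAA replicates 1 to 3, against 20.6, 21.2 and 48.2 CPM in PA_DMSO replicates 1 to 3. The PA_3-IAA libraries were close together and PA_DMSO replicate 3 lay nearer to them than to its own group. The difference did not pass the test over the 6 libraries (log2 fold change 1.11, SE 0.37, adjusted p = 0.0610 by edgeR). Without PA_DMSO replicate 3 it did, at a 3.12-fold higher level (log2 1.64, SE 0.07, adjusted p = 1.93e-18 by edgeR). Over the 6 libraries it was also called by DESeq2 (adjusted p = 0.0162) and by limma voom (adjusted p = 0.00389), and by edgeR with a strict filter of 1 CPM in each library (adjusted p = 0.0462), so that the call depends on the tool and the filter.

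ENG (endoglin, ENSBTAG00000008997) likewise had PA_DMSO replicate 3 between the other libraries. Its CPM was 53.1, 53.2 and 54.4 in PA_3-IAA, against 12.9, 13.8 and 35.9 in PA_DMSO, the widest spread of the 10 markers within PA_DMSO (a coefficient of variation of 62.5%) and the narrowest within PA_3-IAA (1.39%). The fitted log2 fold change was 1.35 (SE 0.43, adjusted p = 0.0534 by edgeR), just short of the threshold. Without PA_DMSO replicate 3 ENG rose 4.03-fold (log2 2.01, SE 0.07, adjusted p = 1.94e-20 by edgeR). DESeq2 (adjusted p = 0.0121), limma voom (adjusted p = 0.00238), edgeR scaled by library total (adjusted p = 0.0475) and edgeR with the strict filter (adjusted p = 0.0395) called it over the 6 libraries.

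TIE1 (ENSBTAG00000003777), the partner of the angiopoietin receptor, rose, with 9.21, 8.31 and 8.995 CPM in PA_3-IAA, against 2.47, 2.19 and 5.51 CPM in PA_DMSO. The rise was 2.57-fold (log2 1.36, SE 0.30, adjusted p = 0.00755 by edgeR) and 3.77-fold without PA_DMSO replicate 3. TEK (ENSBTAG00000020148), which encodes the angiopoietin receptor TIE2, had 5.93, 5.97 and 6.71 CPM in PA_3-IAA, against 4.44, 3.70 and 5.92 CPM in PA_DMSO. Its groups were separated only by the small gap between PA_3-IAA replicate 1 and PA_DMSO replicate 3. TEK did not pass the test (log2 0.39, SE 0.17, adjusted p = 0.0781 by edgeR), passed it without PA_DMSO replicate 3 (log2 0.60, SE 0.16, adjusted p = 0.00170) and passed it narrowly with scaling by library total (adjusted p = 0.0477).

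The junction proteins did not move together. CDH5 (VE-cadherin, ENSBTAG00000007421), which joins endothelial cells at adherens junctions, had 18.6, 16.3 and 16.5 CPM in PA_3-IAA, against 7.69, 8.52 and 14.4 CPM in PA_DMSO. It rose 1.68-fold (log2 0.75, SE 0.22, adjusted p = 0.0253 by edgeR), and 2.13-fold without PA_DMSO replicate 3. The call did not hold without any other single library, with an adjusted p of 0.0799, 0.0564 and 0.0604 without PA_3-IAA replicates 1, 2 and 3, and of 0.0523 and 0.0821 without PA_DMSO replicates 1 and 2, nor with no filter on low counts (adjusted p = 0.0827). PECAM1 (CD31, ENSBTAG00000012066), an adhesion molecule of endothelium that platelets and leukocytes also carry, had 30.3, 26.5 and 26.5 CPM in PA_3-IAA, against 10.9, 11.2 and 18.8 CPM in PA_DMSO. It rose 2.03-fold (log2 1.02, SE 0.21, adjusted p = 0.00531 by edgeR) and 2.52-fold without PA_DMSO replicate 3.

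ESAM (ENSBTAG00000001004), an immunoglobulin-family adhesion molecule of endothelial tight junctions that platelets also carry, went the other way. It had 11.8, 11.6 and 12.1 CPM in PA_3-IAA, against 16.9, 18.9 and 19.2 CPM in PA_DMSO. ESAM fell 1.55-fold (log2 -0.63, SE 0.09, adjusted p = 0.000371 by edgeR), and by 0.59 on the log2 scale without PA_DMSO replicate 3 (adjusted p = 3.24e-06). Here PA_DMSO replicate 3 was not an intermediate library but the highest of the 6. CLDN5 (ENSBTAG00000022020), the claudin of endothelial tight junctions, had 0.768, 0.734 and 0.792 CPM in PA_3-IAA, against 1.33, 2.005 and 1.11 CPM in PA_DMSO. These values rest on 16 to 18 reads per PA_3-IAA library and 22 to 32 per PA_DMSO library, at which counting error is large. CLDN5 fell 1.903-fold (log2 -0.93, SE 0.29, adjusted p = 0.0223 by edgeR), and by 1.10 on the log2 scale without PA_DMSO replicate 3 (adjusted p = 0.00443). The call did not hold without PA_3-IAA replicate 1, 2 or 3 (adjusted p = 0.0642, 0.0679 and 0.0571) or without PA_DMSO replicate 2 (adjusted p = 0.0937, log2 -0.67), and a filter asking for 1 CPM in each library left the gene out.

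VWF and LYVE1 had the largest fitted rises of the 10. VWF (ENSBTAG00000012265), the clotting protein that carries factor VIII, had 17.4, 17.1 and 20.5 CPM in PA_3-IAA, against 4.54, 3.57 and 8.04 CPM in PA_DMSO. It rose 3.36-fold (log2 1.75, SE 0.26, adjusted p = 0.00132 by edgeR), and 4.46-fold without PA_DMSO replicate 3. LYVE1 (ENSBTAG00000000802), which some macrophages also express, had 5.42, 5.78 and 6.53 CPM in PA_3-IAA, against 1.09, 1.504 and 1.82 CPM in PA_DMSO, on 126 to 140 and 22 to 36 reads per library. It rose 4.02-fold (log2 2.01, SE 0.19, adjusted p = 8.34e-05 by edgeR) and 4.62-fold without PA_DMSO replicate 3. VWF, LYVE1, PECAM1, TIE1 and ESAM kept their direction and their call under all 13 alternatives.

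**Figure D2:**
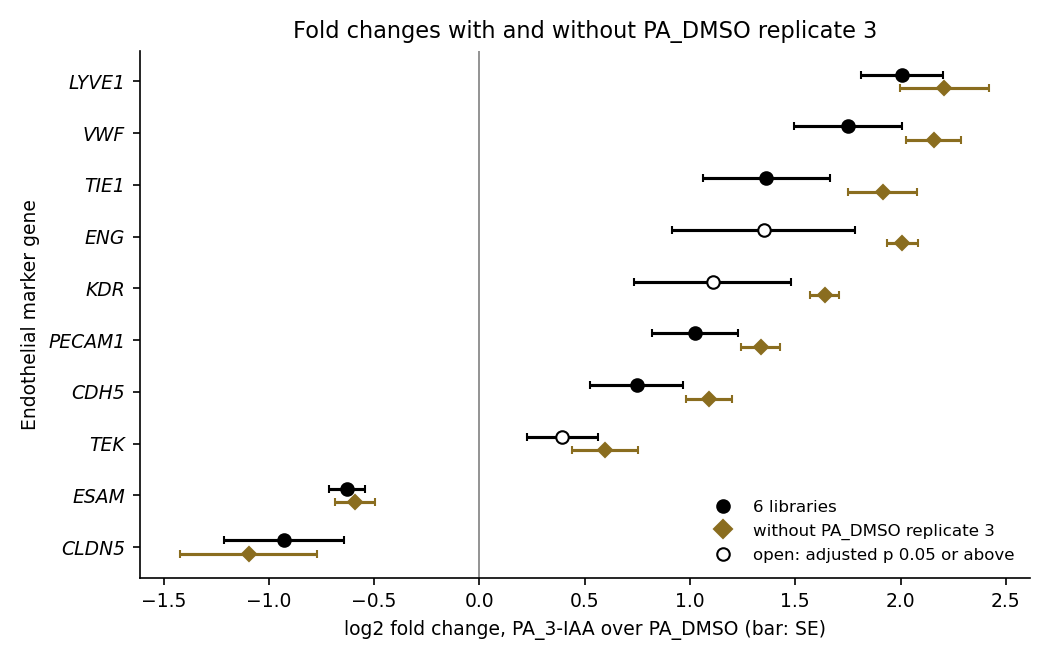
Fitted log2 fold change of PA_3-IAA over PA_DMSO for each endothelial marker, with its SE as a bar, over the 6 libraries (circles) and without PA_DMSO replicate 3 (diamonds). Filled symbols passed the test at an adjusted p under 0.05. ENG, KDR and TEK are open over the 6 libraries and filled without that library, and ESAM and CLDN5 lie below 0 in both.

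The position of PA_DMSO replicate 3 differed between markers. It was the highest library of its group for 9 markers and the lowest for CLDN5. On a log2 CPM scale with a prior count of 2, the distance from the mean of PA_DMSO replicates 1 and 2 to the mean of PA_3-IAA was set to 100%. PA_DMSO replicate 3 then lay at 22.6% for LYVE1, 45.5% for VWF, 57.6% for PECAM1, 64.3% for TIE1, 71.2% for ENG, 73.8% for KDR, 76.4% for CDH5 and 89.2% for TEK. Of these 8, LYVE1 lay nearest to the other PA_DMSO libraries and TEK nearest to the PA_3-IAA level. For ESAM the value was -17.4%, on the far side from PA_3-IAA. For CLDN5, the other marker that fell, it was 51.5%, on 16 to 32 reads per library. For the 842 of 15576 tested genes called at least 2-fold lower, which ESAM and CLDN5 are not among, the median was 27.3%. For the 705 genes of the whole table called at least 2-fold higher (4.53% of those tested), the median was 48.9% with quartiles of 35.0% and 59.1%. A gene with this library near the PA_3-IAA level is less likely to be called, so markers not called cannot be set against these 705. For the 5 markers called higher, at any fold, the median was 57.6% with quartiles of 45.5% and 64.3%. The calculation was chosen after seeing the data and has no test.

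The PA_3-IAA libraries varied little among themselves. The coefficient of variation of the markers within PA_3-IAA had a median of 6.87%, near the 5.93% of all tested genes. Within PA_DMSO the median was 34.2%, beside 10.1% over all tested genes. ESAM was the marker with the smallest spread in PA_DMSO (6.81%).

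The order of the markers by level differed between the groups on the TPM scale. In PA_3-IAA the order of mean TPM was ENG (30.9 ± 1.21, SD, n = 3), KDR (16.9 ± 1.504), PECAM1 (12.98 ± 1.31), ESAM (11.1 ± 0.39), CDH5 (10.0 ± 0.97), LYVE1 (6.18 ± 0.55), TIE1 (3.89 ± 0.28), VWF (3.41 ± 0.33), TEK (2.21 ± 0.19) and CLDN5 (0.60 ± 0.03). Only the neighbours ESAM and CDH5, and TIE1 and VWF, overlapped between libraries there. In PA_DMSO, ESAM stood first with 16.5 ± 0.97 TPM (SD, n = 3), ahead of ENG (11.6 ± 7.27), KDR (7.46 ± 3.90), PECAM1 (6.10 ± 1.995) and CDH5 (5.69 ± 2.02). TEK (1.60 ± 0.42), LYVE1 (1.49 ± 0.39), TIE1 (1.43 ± 0.78), CLDN5 (1.12 ± 0.34) and VWF (0.97 ± 0.43) followed. All neighbours overlapped in PA_DMSO except CDH5 and TEK. ESAM made up 10.98% to 11.5% of the summed TPM of the 10 markers in PA_3-IAA libraries and 23.2% to 37.7% in PA_DMSO libraries. ENG made up 30.5% to 32.0% in PA_3-IAA and 16.1% to 27.0% in PA_DMSO.

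Ratios within a library do not depend on scaling between libraries, and show whether the markers changed unequally. The count of each marker was divided by that of CDH5 in the same library. The ratio of LYVE1 to CDH5 was 0.291, 0.355 and 0.394 in PA_3-IAA, against 0.141, 0.176 and 0.127 in PA_DMSO, a log2 difference of 1.23. For VWF it was 0.936, 1.05 and 1.24 in PA_3-IAA, against 0.590, 0.419 and 0.560 in PA_DMSO, a log2 difference of 1.05. Both genes thus stood higher relative to CDH5 in every PA_3-IAA library.

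The log2 differences were smaller for ENG (0.72), TIE1 (0.70), KDR (0.43) and PECAM1 (0.27), and were below 0 for TEK (-0.38), ESAM (-1.43) and CLDN5 (-1.72). The ratio of ESAM to CDH5 was 0.632, 0.710 and 0.732 in PA_3-IAA, against 2.19, 2.21 and 1.33 in PA_DMSO. Without PA_DMSO replicate 3 the log2 differences were 1.12 for LYVE1, 1.10 for VWF, 0.92 for ENG, 0.84 for TIE1, 0.55 for KDR, 0.25 for PECAM1, -0.47 for TEK, -1.67 for ESAM and -2.18 for CLDN5, each with the same sign. None of the 9 ratios overlapped between the groups. The exact two-sided permutation test gave p = 0.1 for each of the 9 (0.1 after Benjamini-Hochberg adjustment over the 9), the smallest value that 3 libraries against 3 can give, so no ratio can pass a threshold of 0.05 in this design. With PECAM1 in place of CDH5, 7 of 9 ratios did not overlap, while KDR (log2 difference 0.16, exact p = 0.4) and ENG (0.46, exact p = 0.2) did.

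**Figure D3:**
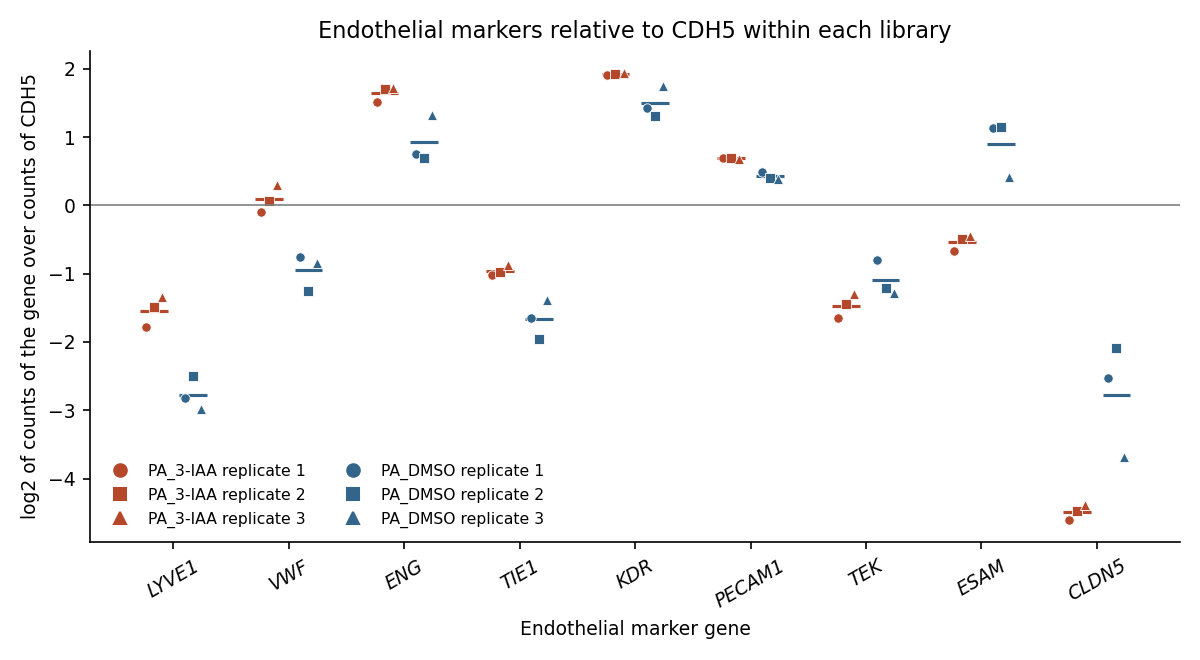
Log2 ratio of the count of each endothelial marker to the count of CDH5 in the same library, for the 3 PA_3-IAA libraries (left of each pair) and the 3 PA_DMSO libraries (right), with a line at the group mean. Markers are ordered by the difference between the groups, which runs from 1.23 for LYVE1 to -1.72 for CLDN5, and no pair of groups overlaps.

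Other genes of the same cells were measured beside the markers. The counts of each list stand against the 25.4% higher and 25.8% lower over all tested genes, and those without PA_DMSO replicate 3 against 30.9% and 29.7%. Of 21 tested genes in a further list of pan-endothelial genes, 11 rose and 1 fell, with a median log2 fold change of 0.90. RAMP2 (log2 1.18), a partner of the adrenomedullin receptor, CD34 (1.78), a surface sialomucin, and PTPRB (0.85), the phosphatase that acts on TEK, were among those that rose. CALCRL, the adrenomedullin receptor that RAMP2 binds, fell (log2 -0.57). In the fit without PA_DMSO replicate 3, 17 of 22 rose and 1 fell. The number that rose was 7 without PA_3-IAA replicate 1 or PA_DMSO replicate 2.

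Of 13 tested genes of sinusoidal and lymphatic endothelium, 4 rose and 2 fell, with a median of 0.35, and without PA_DMSO replicate 3, 5 rose and 2 fell. The number that rose was 2 without PA_DMSO replicate 1 and 1 without PA_3-IAA replicate 1 or PA_DMSO replicate 2. FCGR2B (log2 1.15), an Fc receptor of sinusoidal endothelium, rose, as did PDPN (1.24), which had the highest level of the list. PDPN alone stood at 232 to 238 TPM in PA_3-IAA and 68.2 to 144 TPM in PA_DMSO. The whole list summed to 298 to 311 TPM in PA_3-IAA and 148 to 224.5 TPM in PA_DMSO. Which cells of the culture made PDPN was not tested. BMP2 (-1.44) and RSPO3 (-0.60), signals that liver endothelium releases, fell. STAB2, the scavenger receptor that marks sinusoidal endothelium, had 22 to 35 reads in PA_3-IAA libraries and 17 to 20 in PA_DMSO libraries (log2 0.26) and did not pass the test. CLEC4G, another sinusoidal marker, had 0 to 1 reads in PA_3-IAA and 0 to 3 in PA_DMSO (both named after their values were seen).

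Of 10 tested VEGF and angiopoietin ligands, 3 rose and 5 fell, and without PA_DMSO replicate 3 it was 3 and 6. VEGFA, the main ligand of KDR, fell to 148 ± 6.47 CPM in PA_3-IAA, against 238 ± 32.2 CPM in PA_DMSO (SD, n = 3), while ANGPT1, the ligand that activates TEK, rose (log2 1.34). FGF2 fell (-2.20). Of 9 tested VEGF co-receptors and receptor partners 4 rose and 3 fell, and without PA_DMSO replicate 3 it was 5 and 2. SVEP1 (log2 -1.06) and AMOTL2 (-0.40) were among those that fell over the 6 libraries. With 10 and 9 genes in these lists, no difference from the shares over all tested genes is read from the counts. In the list around ENG, of 25 tested genes 12 rose and 6 fell, and without PA_DMSO replicate 3 it was 14 and 7. The number that rose was 6 to 7 without any single PA_3-IAA library or PA_DMSO replicate 1 or 2, and 7 with no filter on low counts. ACVRL1, the BMP9 receptor that ENG assists, rose (log2 1.33, and 2.03 without PA_DMSO replicate 3), as did the BMP target genes ID1 (2.42, and 4.20 without it) and ID2 (0.83). The shared signal carrier SMAD4 fell (-0.55). Of the ligands of ENG, BMP10 fell (-0.70), and GDF2, the gene of BMP9, did not pass the test (-0.17). ACVRL1, ID1, BMP10 and GDF2 were named after their values were seen.

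Transcription factors of endothelial cells had 4 of 21 tested members higher and 6 lower, shares near those over all tested genes (25.4% and 25.8%). SOX18 (log2 1.51, and 2.26 without PA_DMSO replicate 3) and ERG (0.68) were among those that rose. SOX18 had 27 to 41 reads in PA_3-IAA libraries and 2 to 18 in PA_DMSO libraries. KLF4 (-2.29), ETS1 (-0.61) and EPAS1 (-1.01), which other cells of the liver also express, fell, as did KLF2 (-0.77) and HEY2 (-1.41). FLI1 (0.19), SOX7 (-0.03) and TAL1 (-0.04) did not pass the test. SOX18, ERG, KLF2, HEY2, FLI1, SOX7 and TAL1 were named after their values were seen. With PA_DMSO replicate 3 left out, 7 of 22 rose and 6 fell. The number that rose was 1 without PA_3-IAA replicate 2 or PA_DMSO replicate 1, and 2 without PA_3-IAA replicate 3 or PA_DMSO replicate 2 or with the strict filter of 1 CPM. Genes of endothelial activation and partners of VWF had 6 of 14 higher and 3 lower. TFPI, an inhibitor of coagulation, rose (1.24), and MYRIP, which anchors VWF granules, fell (-1.25), as did the caveolar protein CAVIN1 (-0.30). Here 10 were higher and 3 lower without PA_DMSO replicate 3. The number higher was 2 without PA_3-IAA replicate 2, and 3 without PA_3-IAA replicate 3 or PA_DMSO replicate 2 or with no filter. Junction partners shared with epithelia had 4 of 18 higher and 5 lower, near the shares over all tested genes. F11R (-0.79), JAM2 (-0.61) and CLDN1 (-0.83), 3 tight junction proteins, were among those that fell. CTNNB1 (0.34, named after its value was seen) was among those that rose. The summed TPM of this list overlapped between the groups. Without PA_DMSO replicate 3 that list had 7 higher and 6 lower, and with scaling by library total 8 were higher.

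**Figure D4:**
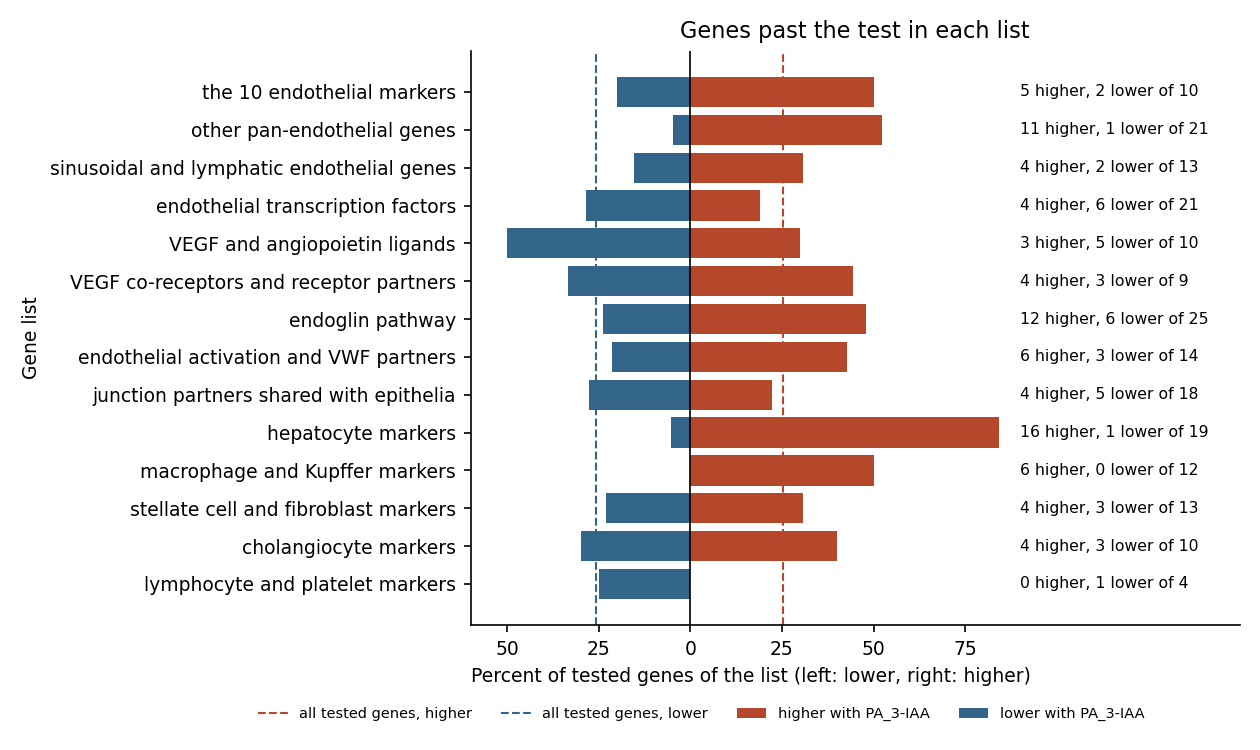
Percent of the tested genes of each list that were higher (right) or lower (left) in PA_3-IAA than in PA_DMSO at an adjusted p under 0.05 in edgeR's quasi-likelihood test, with dashed lines at the percent over all tested genes. The 10 endothelial markers (5 higher), the other pan-endothelial genes (11 of 21), the macrophage and Kupffer markers (6 of 12) and the list around ENG (12 of 25) have about the same percent higher. The hepatocyte list has the highest.

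Markers of other cells that the culture could hold were counted in the same fit. Hepatocyte markers had 16 of 19 higher and 1 lower (FOXA2, named after its value was seen), with a median log2 fold change of 0.61, and without PA_DMSO replicate 3 it was again 16 and 1. Macrophage and Kupffer markers had 6 of 12 tested higher and none lower, and summed to 165 to 174 TPM in PA_3-IAA and 105 to 126 TPM in PA_DMSO. CD14 rose (log2 1.66, and 2.34 without PA_DMSO replicate 3), as did CSF1R (0.48) and CD68 (0.28). VSIG4, a complement receptor of Kupffer cells, did not pass the test (log2 0.04, adjusted p = 0.592 by edgeR), nor did TYROBP (-0.10) or SPI1 (-0.05) (TYROBP and SPI1 were picked with their values known). TIMD4, which marks resident Kupffer cells, had 0 reads in every PA_3-IAA library and 0 to 1 in PA_DMSO libraries (named after its values were seen). The number of macrophage markers that rose was again 6 without PA_DMSO replicate 3, and none fell. It was 2 without any single PA_3-IAA library or PA_DMSO replicate 2, and 3 without PA_DMSO replicate 1 or with the strict filter.

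Stellate cell and fibroblast markers had 4 of 13 higher and 3 lower, near the shares over all tested genes, and 4 of 14 higher and 4 lower without PA_DMSO replicate 3. They summed to 2888 to 2975 TPM in PA_3-IAA and 1693 to 2335 TPM in PA_DMSO, with a log2 fold change of 1.16 for ACTA2 and -1.24 for PDGFRA. The log2 ratio of this sum was 0.59 in TPM but 0.26 in CPM, and the median log2 fold change of the list was -0.05. The 4 were 2 without PA_3-IAA replicate 2 or 3 or PA_DMSO replicate 2. Cholangiocyte markers had 4 of 10 higher and 3 lower, also without PA_DMSO replicate 3, and summed to 1546 to 1597 TPM in PA_3-IAA and 831 to 1018 TPM in PA_DMSO. The log2 ratio of that sum was 0.79 in TPM and 0.61 in CPM, with a median log2 fold change of -0.02 over the list. Lymphocyte and platelet markers had 0 of 4 tested higher and 1 lower, also without PA_DMSO replicate 3, and CD79B and MS4A1, which define B cells, had 0 reads in all 6 libraries (named after their values were seen). Their sum was 54.4 to 61.6 TPM in PA_3-IAA and 71.0 to 75.7 TPM in PA_DMSO. The part of these other cells in the levels of the 10 endothelial markers, PECAM1, ESAM, LYVE1 and ENG among them, was not tested.

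**Figure D5:**
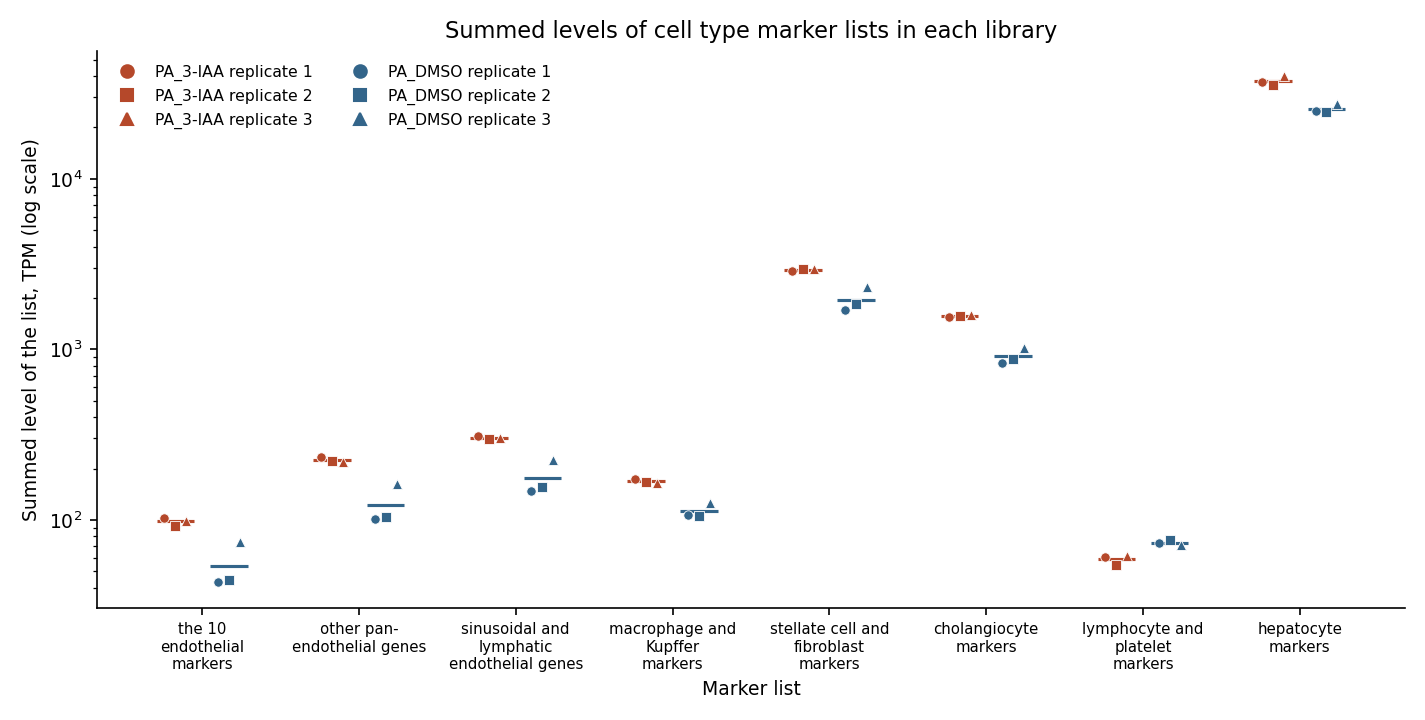
Summed TPM (log axis) of the genes of each cell type marker list in the 3 PA_3-IAA libraries (left of each pair) and the 3 PA_DMSO libraries (right), with a line at the group mean. The 10 endothelial markers sum to 92.6 to 103.0 TPM in PA_3-IAA and 43.1 to 74.2 TPM in PA_DMSO, and the hepatocyte markers to 35450 to 40025 TPM in PA_3-IAA and 24575 to 27546 TPM in PA_DMSO. In PA_3-IAA, PDPN alone has 232 to 238 TPM, beside 298 to 311 TPM for its whole list, the sinusoidal and lymphatic genes.

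The authors' deposited table marks 7 of the 10 markers up, 2 down (ESAM and CLDN5) and TEK as stable. ENG and KDR are among the 7, with an adjusted p of 0.0108 and 0.0145 in the authors' deposited table. Its log2 fold changes for the 10 markers run from -0.95 for CLDN5 to 2.01 for LYVE1.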

How the data were processed

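Per the submitters' processing notes the tools were cutadapt 1.9, HISAT2 2.2.1, RSEM and DESeq2, with no role given; the build, the annotation and whether strand was used are not given in the sources used here. In the authors' deposited table are expected counts (17.2% to 19.0% of values are not whole) and TPM for each library, group means of both, and a length per locus. Per the file headers, the authors' deposited comparison holds a base mean signal, log2 fold change with SE, a Wald score, p-value and adjusted p-value.

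After rounding, the counts entered edgeR 4.0.16 in R 4.3.3 (filterByExpr, TMM, robust quasi-likelihood, two-sided, Benjamini-Hochberg over 15576 genes). The SE was computed from the log2 fold change and the F statistic. The 10 markers passed the filter; their lowest value in any library was 0.734 CPM, against a cutoff of 0.477 CPM. At this depth 3 counts are 0.128 to 0.188 CPM, for counting error only. The markers and gene lists were chosen with earlier results of these data known. All 10 markers are named, and of each other list up to 3 tested genes with the smallest p or, for cell type lists, the highest TPM; gene lists were matched by gene name. Alternatives were DESeq2 1.42.0, limma 3.58.1 voom, no filter, RLE scaling, a strict filter (1 CPM in each library), library totals as scaling, a replicate block, each library left out, PECAM1 for CDH5 and summed CPM for summed TPM. Replicate pairs differed by more than sampling noise (chi-square per degree of freedom 2.87 to 34.3). The test code was also checked on simulated counts with known fold changes, kept apart from the deposited counts. The table came with 2 lines emptied, not analysed here.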

Additional observations from a re-analysis of the deposited data

How the results depend on the processing

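The number of endothelial markers that rose was 5 and ranged from 4 to 8 when each library was left out, with 8 without PA_DMSO replicate 3. It was 7 by DESeq2, limma voom, the strict filter and when scaled by library total, and 4 without a filter. The number that fell was 2 and ranged from 1 to 2 when each library was left out, and was 1 with the strict filter, which leaves CLDN5 out. No marker changed sign under any alternative. Labels give both groups the replicate numbers 1 to 3, but deviations of same-numbered libraries from their group means correlated at 0.018, 0.029 and 0.022, so the numbers are not taken to pair the libraries, although every library correlated best with its own number (a hint from the data, not the design). With the replicate number as a block no marker changed its call, 5 rose, 2 fell, and 3722 genes were higher and 3767 lower. Of all genes tested 3963 were higher and 4015 lower; scaling by library total gave 4820 and 3315. With PECAM1 as denominator the log2 difference was 0.78 for VWF, 0.96 for LYVE1, 0.16 for KDR and -0.64 for TEK. The summed level of the markers had a log2 ratio of 0.86 in TPM and 0.98 in CPM, and 1.16 in TPM without PA_DMSO replicate 3. CLDN5, with 16 to 32 reads per library, is limited by depth.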
